A study of Mus musculus with 4 samples.

Results

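The 9 loci described here are annotated as miRNA genes in the GENCODE M21 mouse annotation (GRCm38), yet most of them carry the sequence of another small RNA. They were taken by symbol from the 2022 features typed miRNA among the 141239 features of the count table: Gm47301 and Gm47285, set against 5S rRNA, Gm47294 and Gm47304, set against 7SL RNA, Gm44456, n-TStga1 and n-TSaga9, set against serine tRNAs, Snord43, set against the box C/D snoRNAs, and Gm24245. Of the 2022 features, 1148 have a symbol that starts with Mir and 874 do not, and the 9 loci are among the 20 of those 874 that had at least 100 counts over the 4 libraries. The loci were chosen with their counts known, so their levels and ratios are a description and carry no test.

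Small RNA was sequenced from extracellular vesicles of RAW264.7 cells, a transformed mouse macrophage-like line, and from the cells themselves. The cells expressed either a short hairpin RNA against Dis3l2 (shDis3l2) or a non-silencing hairpin (shNS), and all 4 libraries were made under doxycycline. Doxycycline was given at 1 µg/mL for 3 days before the change to medium with vesicle-depleted serum, and vesicles were gathered from that medium over 24 h, pooled over flasks, floated in sucrose and treated with micrococcal nuclease. The groups are vesicles shDis3l2, vesicles shNS, cells shDis3l2 and cells shNS, with 1 library each, so no difference below has a replicate check.

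A true miRNA gene makes a hairpin that Drosha and Dicer cut to a short duplex. The RNAs that these loci resemble are made in other ways: 5S rRNA is the smallest RNA of the large ribosomal subunit, 7SL RNA is the scaffold of the signal recognition particle, and tRNAs carry amino acids to the ribosome. These 3 are products of RNA polymerase III, whose transcripts end in a run of U that the La protein binds. Box C/D snoRNAs guide the methylation of rRNA and are mostly cut from introns. Dis3l2 is an exonuclease that degrades RNAs with oligouridine tails, among them unprocessed or aberrant Pol III transcripts.

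Shared sequence, which bears on the feature a read is assigned to, was measured on the GENCODE M21 transcripts, with n-R5s102 as the 5S gene copy of the highest count and Rn7s1 as the 7SL gene of the table. Gm47301 and Gm47285 are each an inner stretch of 5S rRNA. Gm47301 (60 nt) lies wholly inside the annotated 5S copy n-R5s193, and Gm47285 (61 nt) lies wholly inside n-R5s64. Gm47301 shares a run of 56 nt with n-R5s102, and Gm47285 a run of 57 nt, and both depart from it at the 3′ end. Of all windows of 18, 24 or 31 nt within these loci, 0 occur in no other annotated transcript.

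Gm47304 (70 nt) is identical over its whole length to an inner stretch of Rn7s1 (300 nt) and sits inside the 7SL copy Rn7s6. The locus has 2 identical copies in the annotation, Gm47287 and Gm47305, which are not among the features of the table. Gm47294 (88 nt) starts at the same position of 7SL but is a diverged copy. Its longest run with Rn7s1 is 38 nt, and all of it lies in the 7SL-like Gm23153 (typed misc_RNA). Neither locus has a window of 18, 24 or 31 nt of its own.

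The 3 serine tRNA loci are tRNA genes with their trailers rather than miRNA hairpins. Gm44456 (89 nt) holds a body of 82 nt with the anticodon TGA at positions 34 to 36, and RefSeq places the tRNA gene n-TStga2 there. n-TStga1 (109 nt) has the identical body, with a leader of 4 nt and a trailer of 23 nt in place of the 7 nt of Gm44456. n-TSaga9 (107 nt) has the anticodon AGA and shares its longest run with Gm44456, 33 nt, up to the anticodon. Each trailer holds a run of T, of 4 nt in Gm44456 and n-TStga1 and of 6 nt in n-TSaga9. The share of 31-nt windows found in no other annotated transcript was 10.2% in Gm44456, 34.2% in n-TStga1 and 92.2% in n-TSaga9, without the tRNA features of the table, whose sequences were not used here.

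The remaining 2 loci shared no run of 18 nt or more with the annotated 5S or 7SL genes, and their sequences (GENCODE M21, GRCm38, 5′ to 3′) are shown. Capitals mark in Gm24245 the longest run shared with Gm24187, another locus typed miRNA, and in Snord43 the letters of the C box and of the last D box.
Gm24245: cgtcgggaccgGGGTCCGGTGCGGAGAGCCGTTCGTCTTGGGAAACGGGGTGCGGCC
Snord43: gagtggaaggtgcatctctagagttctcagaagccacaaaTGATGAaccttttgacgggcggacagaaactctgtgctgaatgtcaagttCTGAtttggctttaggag

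Gm24245 (ENSMUST00000157318, chr4:139338304-139338360, plus strand, 57 nt) shared no run of 18 nt or more with an annotated 5S gene, 7SL or other misc_RNA, or snoRNA. Its only partners were loci typed miRNA, among them the identical Gm24270 and Gm23935, which are not among the features of the table, and Gm24187 with 46 nt. It is therefore described without a parent, and RNAs outside the GENCODE M21 transcripts were not searched. Snord43 (ENSMUST00000199549, chr15:80082847-80082954, minus strand, 108 nt) lies in an intron of Rpl3, which encodes a protein of the large ribosomal subunit, and RefSeq gives it as a snoRNA. Its sequence holds TGATGA at positions 41 to 46 and CTGA at positions 77 to 80 and 91 to 94. The same letters in that order, read on the transcript strand, occur in 71.4% of the 84 features with a Snord symbol typed snoRNA and in 0.544% of the 2022 typed miRNA. Of its 31-nt windows, 100% were found in no other annotated transcript.

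The libraries held 17612856 to 19741041 estimated counts, of which features typed miRNA took 10.5% and 19.1% in vesicles labelled shDis3l2 and shNS and 61.2% and 68.3% in cells labelled shDis3l2 and shNS. Dis3l2 had 1894 counts in vesicles labelled shDis3l2 against 1713 in vesicles labelled shNS. In cells the library labelled shDis3l2 had 13232 counts against 41 in that labelled shNS, although the label means a hairpin against Dis3l2. These are counts of small RNA reads, not a measure of the whole mRNA, and the source of these reads was not tested. Each library is therefore named by its label. Of 10 macrophage markers, 9 had counts in every library and Mir223 had 0, with a summed level of 13945 and 32961 CPM (counts scaled to a library total of 1000000) in vesicles labelled shDis3l2 and shNS and 81015 and 121429 CPM in cells labelled shDis3l2 and shNS. Among the macrophage markers, Mir142, Mir146, Mir155 and Mir21a were lower in vesicles under both labels. Ptprc, Csf1r, Cd68 and Lyz2 were higher, and Adgre1 had 0.389 to 3.39 CPM. Markers of other cell types summed to 279 to 1352 CPM, most of it Mir128-1. Of these, Mir128-1, Mir200a, Mir200b and Mir200c were lower in vesicles, and Mir141 and Mir124a-1 split by label. Mir451a (8.91 and 20.7 against 0.163 and 0.203) and Mir144 (15.1 and 26.2 against 0 and 0.249) were higher, shDis3l2 before shNS. Mir122 was only slightly higher (9.25 and 6.87 against 8.03 and 6.67). Levels are CPM of all counts, and a count of 0 allows up to 0.152 to 0.170 CPM, taking 3 counts as the floor in each library. The 95% intervals in brackets are exact and cover counting error only, and no source used here says whether reads were collapsed to molecules. Neither they nor the bounds from a count of 0 cover how estimated counts were divided among features that share sequence.

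The 9 loci took 0.238% and 0.253% of all counts in vesicles labelled shDis3l2 and shNS, against 0.142% and 0.131% in cells labelled shDis3l2 and shNS. Among features typed miRNA the contrast was wider, with 2.26% and 1.32% in vesicles and 0.232% and 0.192% in cells in the same order of labels. Of the counts of miRNA-typed features without a Mir symbol they made up 47.1% and 53.0% in vesicles and 87.7% and 86.5% in cells. Outside the 9 loci, Gm47299 held the most such counts, with 45672 and 39308 in vesicles labelled shDis3l2 and shNS and 1842 and 2282 in cells, and it shares 77 nt with Rn7s1. None of the 34 values above 0 of the 9 loci was whole within 0.001, beside 6.56% of the 207196 values above 0 of all features and 39.2% of the 2120 of Mir symbols.

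**Figure D1:**
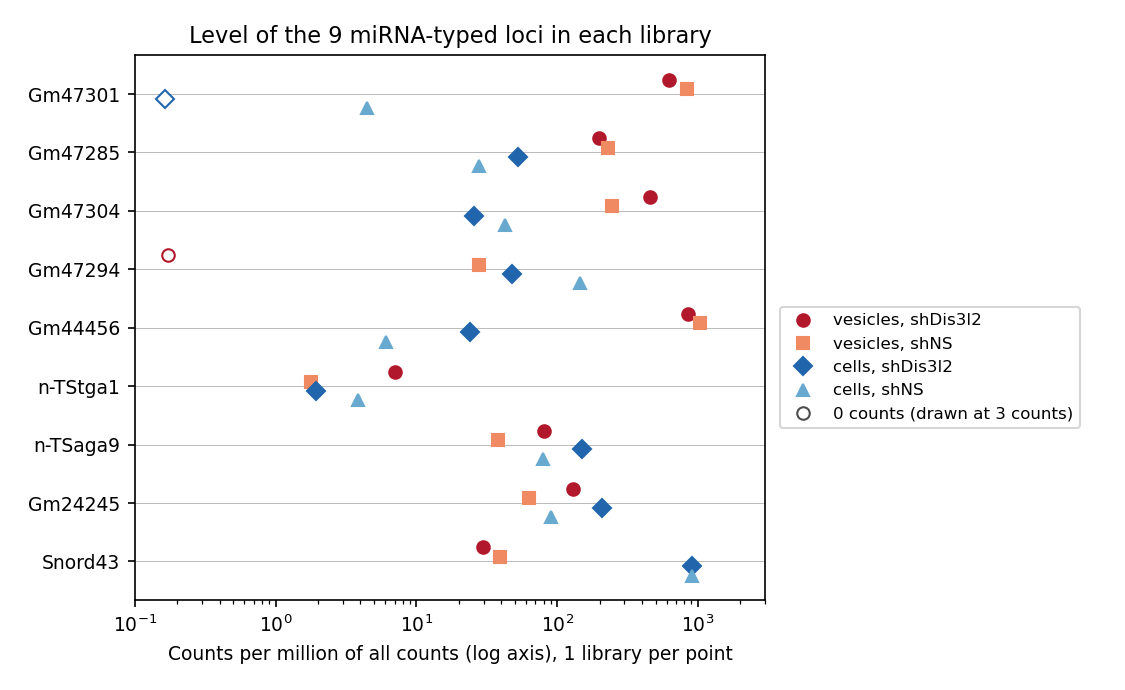
Level of each locus in the 4 libraries, in CPM of all counts on a log axis, with open symbols at the 3-count floor for the 2 values of 0. Levels are not per length, so they are to be read along a row: Gm47301 and Gm44456 lie far higher in both vesicle libraries than in both cell libraries, and Snord43 far lower.

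The 5S pair was measured mainly in vesicles, but the 2 loci divided the counts differently in cells. Gm47301 had 627 CPM in vesicles labelled shDis3l2, 844 in vesicles labelled shNS, 0 in cells labelled shDis3l2 and 4.44 in cells labelled shNS. Gm47285 had 198 and 232 CPM in vesicles labelled shDis3l2 and shNS and 53.1 and 28.1 in cells labelled shDis3l2 and shNS. Vesicle values of both loci were thus above all cell values, and Gm47301 had few or no counts in cells where Gm47285 was well above the floor. The 149 annotated 5S genes of the class, 73 of them with a count, summed to 2099 and 1808 CPM in vesicles and 129 and 81.9 CPM in cells, shDis3l2 before shNS. In bulk RNA, fewer vesicles or cells and less of an RNA in each cannot be told apart.

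Between compartments, Gm47301 exceeded the class and Gm47285 fell short of it. Under the label shDis3l2, Gm47301 was at least 3851-fold higher in vesicles, Gm47285 3.74-fold (3.48 to 4.02) and the class 16.2-fold (15.6 to 16.9). Under the label shNS, Gm47301 was 189-fold higher in vesicles than in cells (154 to 236), Gm47285 8.25-fold (7.55 to 9.03) and the class 22.1-fold (21.0 to 23.2). Under that label the log2 ratio of Gm47301 was 3.09 above that of the class (2.78 to 3.40), and that of Gm47285 was 1.42 below it (log2 difference -1.42, -1.57 to -1.27). With TMM factors the log2 ratio of Gm47285 was 0.93 under shNS, short of 2-fold, and -0.46 under shDis3l2.

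The share of the pair in its class varied less over the libraries than that of Gm47301 on its own. As a share of the counts of loci and class together, not per length, the pair held 28.2% (27.8 to 28.6) and 37.3% (36.9 to 37.7) in vesicles labelled shDis3l2 and shNS. The share was 29.1% (27.6 to 30.7) and 28.4% (26.6 to 30.3) in cells labelled shDis3l2 and shNS. Gm47301 on its own, set beside the class, ranged from 23.0% and 31.8% in vesicles to 0% (up to 0.155%) and 5.16% in cells, shDis3l2 before shNS.

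The division among annotated 5S copies varied in the same way. n-R5s102 had 1290 and 948 CPM in vesicles labelled shDis3l2 and shNS, against 84.2 and 64.2 CPM in cells labelled shDis3l2 and shNS. The copy n-R5s112, which shares 46 nt with Gm47301, had 499 and 644 CPM in vesicles but 7.57 and 2.81 CPM in cells. Its vesicle over cell ratio under shNS was 231-fold (178 to 307), against 14.8-fold (13.9 to 15.6) for n-R5s102. The host copies n-R5s193 and n-R5s64, which contain the miRNA-typed loci whole, had 0 counts in all 4 libraries.

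Sequence shared with 5S reached beyond rRNA genes. A transcript of the protein-coding gene Tmem38b, which encodes a cation channel of the endoplasmic reticulum and was picked after its values were seen, shares 41 nt with Gm47301. It had 1039 and 1024 CPM in vesicles labelled shDis3l2 and shNS and 211 and 149 CPM in cells labelled shDis3l2 and shNS. Over all 67 features that share at least 24 nt with either locus, a group also formed after the values were seen, the pair held 20.7% and 27.3% of the counts in vesicles and 13.5% and 12.4% in cells, shDis3l2 before shNS. How the reads were divided among these features was not tested.

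Between labels the 5S pair and its class differed by less than 2-fold wherever both libraries had counts. In vesicles, Gm47301 had a log2 ratio of shDis3l2 over shNS of -0.43 (-0.46 to -0.39), Gm47285 of -0.22 (-0.29 to -0.16) and the class of 0.22 (0.19 to 0.24). Summed with its miRNA-typed loci, the class had 2925 CPM in vesicles labelled shDis3l2 and 2883 in vesicles labelled shNS, a log2 ratio of 0.02. In cells, Gm47285 was higher with the label shDis3l2 by 0.92 on the log2 scale (0.77 to 1.07) and the class by 0.66 (0.57 to 0.75). Gm47301, with 0 counts in cells labelled shDis3l2 and 88 in cells labelled shNS, was at least 27.4-fold lower, but fell under the minimum of 100 counts for a comparison.

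The 7SL pair showed opposite compartments, although both loci derive from the same stretch of 7SL. Gm47304, the exact copy, had 458 and 245 CPM in vesicles labelled shDis3l2 and shNS and 25.6 and 42.7 CPM in cells labelled shDis3l2 and shNS. Gm47294, the diverged copy, had 0 and 27.7 CPM in vesicles and 47.7 and 146 CPM in cells, shDis3l2 before shNS. Rn7s1, 7SL itself, had 4694 and 3055 CPM in vesicles and 249 and 295 CPM in cells in the same order. Gm47304 was thus high where Rn7s1 was high, and Gm47294 was high in cells.

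Set against 7SL, only Gm47294 departed by more than 2-fold within this pair. Under shDis3l2, Gm47304 was 17.9-fold higher in vesicles (16.3 to 19.7) and Rn7s1 18.9-fold (18.3 to 19.5), while Gm47294 was at least 280-fold lower. Under shNS, Gm47304 was 5.73-fold higher in vesicles than in cells (5.32 to 6.18) and Rn7s1 10.3-fold (10.1 to 10.6), while Gm47294 was 5.28-fold lower (log2 -2.40, -2.54 to -2.26). With TMM factors the shNS log2 ratio of Gm47304 was 0.40 and with DESeq2 size factors 0.38, short of 2-fold. Gm47304 held 8.89% (8.71 to 9.08) and 7.42% (7.21 to 7.63) of the counts of locus and Rn7s1 in vesicles labelled shDis3l2 and shNS, and 9.33% (8.54 to 10.2) and 12.6% (11.8 to 13.5) in cells labelled shDis3l2 and shNS. The share of Gm47294, formed likewise, was 0% (up to 0.00446%) and 0.897% in vesicles but 16.1% and 33.1% in cells.

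Between labels, 7SL and Gm47304 were higher in vesicles and lower in cells with the label shDis3l2, each by less than 2-fold. In vesicles, the log2 ratio of shDis3l2 over shNS was 0.90 for Gm47304 (0.85 to 0.96) and 0.62 for Rn7s1 (0.60 to 0.64), whereas Gm47294 was at least 162-fold lower, with 0 against 503 counts. In cells, the ratio was -0.74 for Gm47304 (-0.91 to -0.58), -0.25 for Rn7s1 (-0.30 to -0.19) and -1.61 for Gm47294 (-1.73 to -1.50), which is 3.06-fold lower. The annotated copies that contain these loci had few counts, at most 17.0 for Rn7s6 and 6.21 for Gm23153 in a library.

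Among the serine tRNA loci, Gm44456 was higher in both vesicle libraries than in both cell libraries, and n-TSaga9 was not. Gm44456 had 849 and 1039 CPM in vesicles labelled shDis3l2 and shNS, against 24.0 and 6.03 CPM in cells labelled shDis3l2 and shNS. n-TSaga9 had 80.9 and 37.9 CPM in vesicles and 150 and 78.8 CPM in cells, shDis3l2 before shNS, so it followed the label in both compartments. n-TStga1, with the same tRNA body as Gm44456 but a longer trailer, had 7.04 and 1.78 CPM in vesicles and 1.93 and 3.84 CPM in cells, from 124, 32, 36 and 76 counts in the same library order.

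The tRNA features set against these loci had other levels. The tRNA-Ser(TGA) features, which decode the same codons as Gm44456 and n-TStga1, had 201 and 192.9 CPM in vesicles labelled shDis3l2 and shNS and 72.2 and 72.3 CPM in cells labelled shDis3l2 and shNS. tRNA-Ser(AGA), the parent class of n-TSaga9, had 11.9 and 22.0 CPM in vesicles and 0 in both cell libraries, where n-TSaga9 had 2756 and 1555 counts. Of the individual features, tRNA-Ser-AGA-2-1 and tRNA-Ser-TGA-2-1 were at 0 in all 4 libraries. Serine tRNAs with other anticodons had 767 and 904 CPM in vesicles and 165 and 135.9 CPM in cells for tRNA-Ser(CGA), and 806 and 710 CPM in vesicles and 221 and 102.1 CPM in cells for tRNA-Ser(GCT), shDis3l2 before shNS.

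A large share of the counts of these isoacceptors stood under a miRNA type, more in vesicles than in cells for Gm44456. Gm44456 held 80.9% (80.3 to 81.5) and 84.3% (83.9 to 84.8) of the counts of locus and tRNA-Ser(TGA) in vesicles labelled shDis3l2 and shNS, and 25.0% (23.0 to 27.1) and 7.69% (6.41 to 9.13) in cells labelled shDis3l2 and shNS. n-TSaga9 held 87.2% (85.4 to 88.7) and 63.3% (60.3 to 66.1) of the counts of locus and tRNA-Ser(AGA) in vesicles, and 100% in both cell libraries. Whether the tRNA features and these loci were offered to the same reads was not tested. The split of reads between tRNA body and trailer was not tested either.

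**Figure D2:**
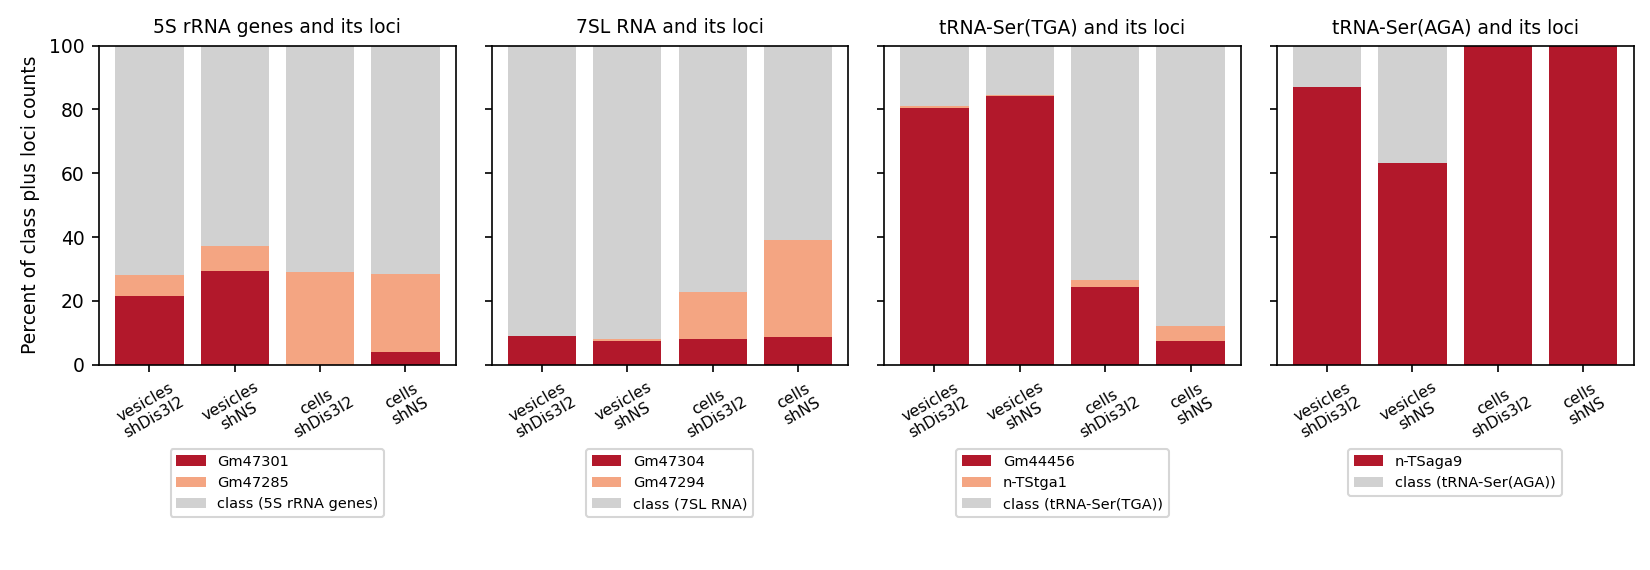
Share of counts in percent, per library, of the miRNA-typed loci (coloured) and of their parent class (grey), for 5S, 7SL, tRNA-Ser(TGA) and tRNA-Ser(AGA). The 5S pair keeps a share of 28.2% to 37.3% while its makeup changes, the share of Gm47294 is large in cells, and Gm44456 with n-TStga1 takes 81.0% and 84.4% in vesicles labelled shDis3l2 and shNS.

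The ratios of the tRNA loci differed from those of their class by up to 6.01 on the log2 scale where both had counts in the libraries compared. Under shDis3l2, Gm44456 was 35.3-fold higher in vesicles (32.1 to 38.9), against 2.78-fold (2.61 to 2.96) for the class. Under shNS, Gm44456 was 172-fold higher in vesicles than in cells (144 to 208), against 2.67-fold (2.51 to 2.84) for tRNA-Ser(TGA). n-TSaga9 had a vesicle over cell log2 ratio of -0.89 (-0.98 to -0.79) under shDis3l2 and of -1.06 (-1.19 to -0.93) under shNS. Its class, at 0 in cells, was at least 73.2-fold higher in vesicles under shDis3l2 and at least 145-fold higher under shNS. For n-TStga1 the compartments differed by label, with a vesicle over cell log2 ratio of 1.83 (1.30 to 2.43) under shDis3l2 and of -1.12 (-1.77 to -0.52) under shNS.

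Between labels, the 3 tRNA loci had 3 patterns. Gm44456 had a log2 ratio of shDis3l2 over shNS of -0.29 in vesicles (-0.32 to -0.26) and was 3.99-fold higher in cells labelled shDis3l2 than in cells labelled shNS (3.25 to 4.93). n-TSaga9 was higher with the label shDis3l2 in both compartments, 2.14-fold in vesicles (1.95 to 2.34) and 1.90-fold in cells (1.78 to 2.02). n-TStga1 was 4.00-fold higher in vesicles labelled shDis3l2 than in vesicles labelled shNS (2.69 to 6.10), and in cells its log2 ratio was -0.97 (-1.59 to -0.39), from 36 and 76 counts. tRNA-Ser(TGA) differed little between labels, with log2 ratios of 0.06 in vesicles (-0.01 to 0.12) and 0.00 in cells (-0.11 to 0.11), and tRNA-Ser(AGA) had -0.88 in vesicles (-1.13 to -0.64).

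Gm24245 had 129 and 63.3 CPM in vesicles labelled shDis3l2 and shNS and 210 and 90.3 CPM in cells labelled shDis3l2 and shNS. Values with the label shDis3l2 were above those with the label shNS in each compartment. The ratio of shDis3l2 over shNS was 2.04-fold in vesicles (1.90 to 2.19) and 2.32-fold in cells (2.20 to 2.46). The vesicle over cell log2 ratio was -0.70 (-0.78 to -0.63) under shDis3l2 and -0.51 (-0.62 to -0.40) under shNS, both short of 2-fold. On the TMM scale (edgeR's factors) these ratios were -3.06 and -2.63, and with the total of miRNA-typed counts as the scale they turned to 1.84 and 1.32. Its partner Gm24187 had counts only in cells labelled shNS, where it had 23.

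Snord43 was higher in both cell libraries than in both vesicle libraries and differed from its class by less than 2-fold in all 4 comparisons. It had 29.9 and 39.4 CPM in vesicles labelled shDis3l2 and shNS and 909 and 914 CPM in cells labelled shDis3l2 and shNS. The 84 box C/D features had 976 and 1482 CPM in vesicles and 39448 and 29487 CPM in cells in the same order. Snord43 was 30.4-fold lower in vesicles than in cells under shDis3l2 (log2 -4.93, -5.06 to -4.80), against 40.4-fold lower for the class, and 23.2-fold lower under shNS (log2 -4.54, -4.65 to -4.43), against 19.9-fold lower for the class. Beside the class, it held 2.97% (2.72 to 3.23) and 2.59% (2.40 to 2.78) of counts in vesicles and 2.25% (2.22 to 2.29) and 3.01% (2.96 to 3.05) in cells.

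The host gene of Snord43, summed over its transcripts, was higher in vesicles, as most features were. Rpl3 had 42.1 and 48.7 CPM in vesicles labelled shDis3l2 and shNS, against 6.48 and 4.82 CPM in cells labelled shDis3l2 and shNS. Its transcripts divided, and a protein-coding one had 650 and 729 counts in vesicles and 61.1 and 0 in cells. A retained-intron one had 5.78 and 13.1 counts in vesicles and 36.5 and 61.1 in cells, shDis3l2 before shNS. Between labels, Snord43 had a log2 ratio of -0.40 in vesicles (-0.56 to -0.23) and -0.01 in cells (-0.04 to 0.02), and the class had -0.60 and 0.42.

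**Figure D3:**
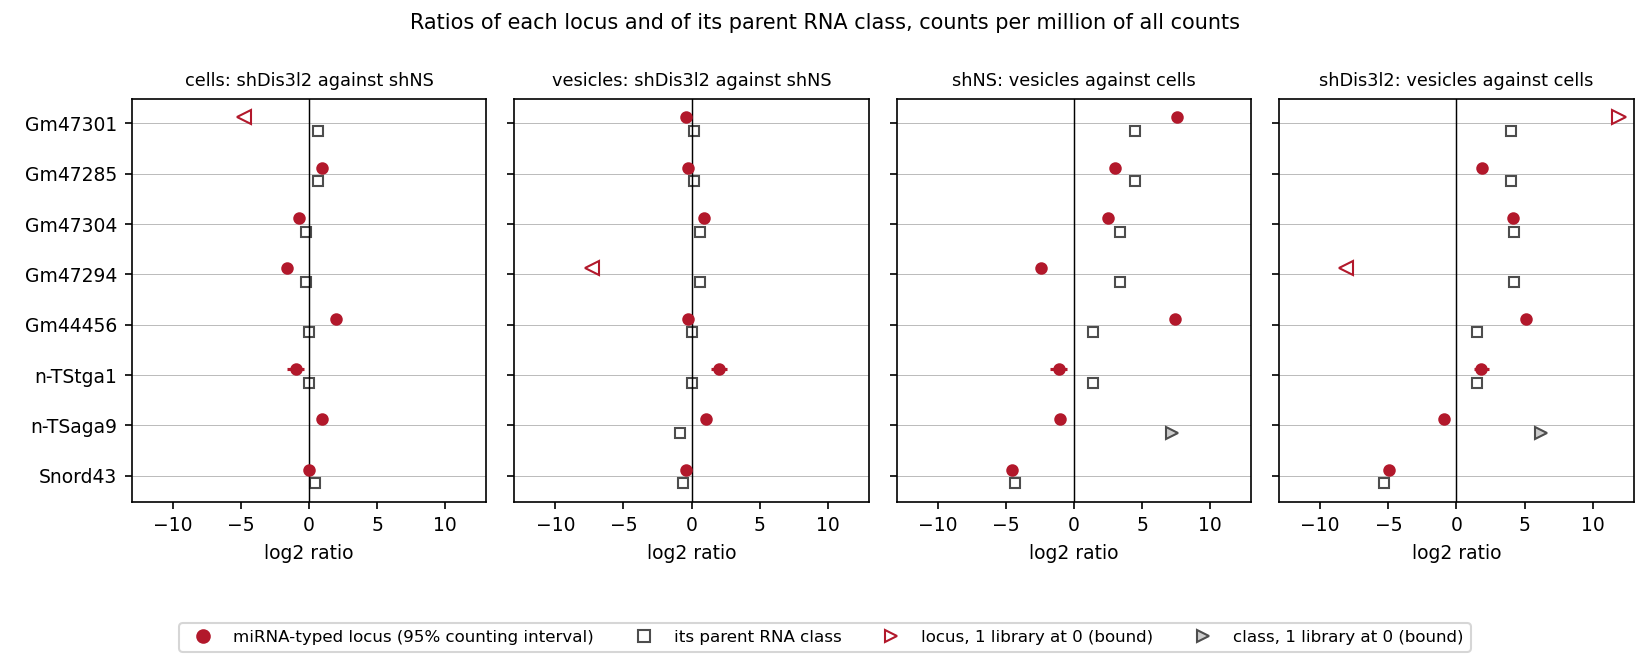
Log2 ratio of CPM of each locus (filled circle, with 95% counting interval) and of its parent class (open square) in the 4 comparisons, with triangles for bounds where a library had 0 counts. In both comparisons of vesicles with cells, Gm44456 and Gm47301 lie above their class and Gm47294 and n-TSaga9 below, while Snord43 and Gm47304 lie within 2-fold of theirs.

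Counted over the loci with at least 100 counts in a comparison, a ratio of at least 2-fold with an interval that leaves out 1 was met by few between labels and by most between compartments. In vesicles, 3 of 9 loci (Gm24245, n-TSaga9 and n-TStga1) were higher with the label shDis3l2 and 1 (Gm47294) lower, beside 16.8% higher and 5.59% lower (22.4% in all) of 8531 features. With TMM or DESeq2 size factors Gm24245 and n-TSaga9 fell short of 2-fold in vesicles (TMM log2 0.72 and 0.79), which left 1 locus higher and 1 lower, beside 996 higher and 750 lower of all features with TMM. In cells, 2 of 8 (Gm44456 and Gm24245) were higher with the label shDis3l2 and 1 (Gm47294) lower, beside 18.2% higher and 7.23% lower (25.4% in all) of 2740 features. The median log2 ratio of the loci was -0.22 in vesicles and 0.46 in cells, beside 0.34 in vesicles and 0.12 in cells over all features and -0.68 and -0.13 over Mir symbols. These loci were chosen on such values, so nothing is read from their counts.

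Vesicles against cells, 5 of 9 loci were higher and 2 lower under shDis3l2, beside 77.3% and 16.1% (93.4% in all) of 6876 features. Under shNS, 4 were higher and 4 lower, beside 74.5% and 17.0% (91.5% in all) of 6129. The median of the loci was 1.83 under shDis3l2 and -0.51 under shNS, beside 3.03 and 2.73 over all features and -2.08 and -1.42 over Mir symbols. With TMM factors the loci were 3 higher and 4 lower under shDis3l2 (2958 and 1709 of all features) and 2 higher and 5 lower under shNS (2607 and 1631). With the total of miRNA-typed counts they were 7 higher and 2 lower under shDis3l2 (5872 and 574) and 5 higher and 1 lower under shNS (5057 and 557). On the CPM scale most features were thus higher in vesicles, and relative to all features the vesicle loci Gm47301 and Gm44456 stood above the median under both labels. edgeR's TMM factors lower the median of all features to 0.67 under shDis3l2 and 0.62 under shNS, and the total of miRNA-typed counts raises it to 5.57 and 4.57. On the TMM scale the vesicle over cell log2 ratio of Gm47285 under shDis3l2 turned to -0.46 and that of n-TStga1 to -0.53. With the miRNA-typed total, n-TSaga9 turned to 0.78 and n-TStga1 to 0.72 under shNS.

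Between vesicles and cells, other small RNAs made by RNA polymerase III stood near the share of all features. Of 6 (Rn7sk, Rny1, Rny3, Rpph1, Rmrp and Vaultrc5), 5 were at least 2-fold higher in vesicles than in cells under each label and 0 lower, beside 77.3% of all features higher under shDis3l2 and 74.5% under shNS, with Rmrp, the RNA of RNase MRP, below 2-fold. Between labels in vesicles, 0 of the 6 passed in either direction, beside 22.4% of all features. In cells, 2 of the 6 were higher with the label shDis3l2, beside 18.2% of all features: Rn7sk, a regulator of transcription elongation, by 1.11 on the log2 scale, and Rny3, a Y RNA, by 2.14.

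Transcripts of 12 proteins that bind or mature the parent RNAs were measured from few fragments. Vesicles against cells, 7 of 9 tested were higher and 1 lower under shDis3l2, beside 77.3% and 16.1% of all features, and 7 of 8 higher and 1 lower under shNS, beside 74.5% and 17.0%, with Srp72, a protein of the signal recognition particle, the lower of the list. Between labels in vesicles, 0 of 10 passed in either direction, beside 22.4% of all features. In cells, 2 of 4 were higher with the label shDis3l2, beside 18.2% of all features, Elac2, which cuts the trailer from tRNA precursors, by 2.04 on the log2 scale and Rpl5, which binds 5S rRNA, by 2.15.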

How the data were processed

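The authors deposited estimated counts per transcript for 4 libraries of 50-nt reads. The tools named, per the submitters' processing notes, are cutadapt, Salmon and Novoalign, with the builds GRCm38 and mm10 and no versions. Features were named from GENCODE M21 (GRCm38), and locus names at RefSeq from its gene table. The 9 loci and all lists were chosen with earlier results of these data known. Counts were rounded to whole numbers and divided by the library total. Log2 ratios used a pseudocount of 0.5 counts. Exact conditional (Clopper-Pearson) 95% intervals were computed over features with at least 100 counts in the 2 libraries compared. Shares used exact binomial intervals, and differences of log2 ratios approximate ones. A value is past the threshold at 2-fold with an interval that leaves out 1. Shared runs of at least 18 nt on the same strand were found by a search of all GENCODE M21 transcripts. All 9 loci are named whatever their values, with, per locus, the RNAs of the longest shared run, the parent classes, 6 other Pol III RNAs and 12 proteins. Additive fits used edgeR 4.0.16 (quasi-likelihood, Benjamini-Hochberg) and DESeq2 1.42.0 in R 4.3.3, and the rest Python 3.11.15 with SciPy 1.17.1. Ratios and fits were run on simulated counts with 200 changed features, raised and lowered in equal number. Scaling where most features differ was not tested by this. The per-sample columns not used number 0. Alternatives were other scalings, count minimums of 10 and 1000, a pseudocount of 5, and summing each locus with the feature that shares its longest run. The sequences of the 5S, 7SL and serine tRNA loci are not reported here.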

Additional observations from a re-analysis of the deposited data

Results flagged for a closer look

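For 4 of the 9 loci the ratio of shDis3l2 over shNS pointed one way in vesicles and the other way in cells. Both log2 intervals had to leave out 0, with no 2-fold threshold, so ratios as small as -0.22 for Gm47285 in vesicles were included. The same count was not made over all features, so how common such a pattern is was not tested. With 1 library in each group the difference between the compartments was not tested, and each value is the log2 ratio in vesicles minus that in cells. The difference was 2.95 for n-TStga1, from few counts in cells, and 1.64 for Gm47304, both higher in vesicles and lower in cells with the label shDis3l2. It was -2.28 for Gm44456 and -1.14 for Gm47285, both lower in vesicles and higher in cells. With the total of miRNA-typed counts as the scale, Gm47285 (0.64 in vesicles and 1.08 in cells) and Gm44456 (0.57 in vesicles and 2.15 in cells) pointed the same way in both compartments, and Gm47301, with 0.43 in vesicles and 0 against 88 counts in cells, pointed opposite ways. The 7SL class pointed the same way as Gm47304, with a difference of 0.87, whereas the tRNA-Ser(TGA) class differed by 0.06 and the 5S class by -0.44. The box C/D class, lower in vesicles and higher in cells with the label shDis3l2, differed by -1.02.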

How the results depend on the processing

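No paired analysis was possible because each group has 1 library and the labels carry no replicate numbers. Of 288 values of the loci recomputed, 171 stayed the same, 105 moved and 12 changed direction. Same means within the counting interval, or for the additive fits within the range of the 2 ratios averaged. Of the 12, 10 were single comparisons at least 2-fold and 2 the n-TStga1 compartment effect, while 12 others changed sign. Some values could not or could hardly change, so the number that stayed the same is no measure of stability. Leaving the counts unrounded gave 36 of 36 the same, and the features summed with Gm47301 and Gm47285 had 0 counts. Each locus was also summed with the feature of the table that shares its longest run, which was Gm44456 for n-TSaga9 and n-TStga1. So summed, the vesicle label ratio was -0.21 for n-TSaga9 and -0.28 for n-TStga1, and the shNS vesicle over cell ratio 3.67 and 6.72. In vesicles these sums were mostly Gm44456, with 18908 counts under shNS against 689 for n-TSaga9 and 32 for n-TStga1. Summed with tRNA-Ser(AGA) instead, n-TSaga9 had 92.9 CPM in vesicles labelled shDis3l2 and 59.8 in vesicles labelled shNS. On the total of miRNA-typed counts the shNS vesicle over cell ratios of n-TSaga9 and n-TStga1 were 0.78 and 0.72. TMM and DESeq2 size factors gave -0.46 for Gm47285 and -0.53 for n-TStga1 under shDis3l2. The additive fits, with 1 residual degree of freedom, gave n-TStga1 a compartment effect of -1.87 (edgeR) and -1.89 (DESeq2), against a mean log2 ratio of 0.36. The number of loci past 2-fold between labels in vesicles was 2 with TMM, size factors, a minimum of 1000 counts or these sums, against 4. Beside it stood 1746 of all 8531 features with TMM or size factors and 454 of 1363 with the minimum of 1000, against 1911. In cells the number of loci was 5 with the miRNA-typed total or these sums, against 3. With the miRNA-typed total 735 of all 2740 features passed in cells, against 697. Over all features, the vesicle label comparison gave 5552 past 2-fold with the miRNA-typed total, against 1911. A minimum of 10 counts gave 12017, 8969, 23849 and 22677 and a minimum of 1000 gave 454, 172, 1276 and 948, against 1911, 697, 6424 and 5610, for the labels in vesicles, the labels in cells, and vesicles against cells under shDis3l2 and under shNS. The cause of the other shifts was not tested. Depth limits n-TStga1 and the values of 0.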
